A study of Mus musculus with 6 samples.

Results

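In testes of mice at postnatal day 14, 193 genes listed under RIKEN clone names from adult testis libraries were followed between wild-type animals and animals with Rif1 deleted in their germ cells. Of the 193, 142 had estimates below the wild-type level and 51 above it. In the test across all genes 14 fell (7.25%, against 1.27% of all tested genes) and 0 rose (against 0.0318%). Of the 14, 8 reached the level used for selection in wild type only, and such genes had to be lower after the deletion. The falls ranged from about 2-fold for 1700028J19Rik to near loss of the transcript for 1700020N18Rik. The genes were selected on their symbol, a clone number of the adult testis libraries followed by Rik, and on a measured level, a mean of at least 1 CPM (the usual read count scaled to a common library total) over all 6 libraries. Symbols of this form numbered 1082 of the 50763 in the count table. Of these, 303 had a count of 0 in every library, 889 lay below 1 CPM and 193 reached it.

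RIKEN clone names were given to full-length mouse cDNAs that were sequenced before the gene behind them had been studied, and many genes keep such a name although their product is unknown or was described later. Adult testis was among the tissues that gave many such clones, because spermatocytes in late meiotic prophase and round spermatids transcribe a very large part of the genome, long non-coding RNAs included. Spermatogonia divide by mitosis, and spermatocytes pass through leptotene, zygotene and pachytene, the stages in which homologous chromosomes pair and recombine.

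RNA was captured with oligo-dT beads from testis and sequenced, with 3 wild-type samples (WT) and 3 samples of the genotype labelled sKO. The title of the series describes sKO as a conditional loss of Rif1 from germ cells that have not yet entered meiosis. RIF1 is a protein of DNA double-strand break repair and of replication timing. The Cre driver, the deleted exons, the strain and the genotype of the controls at other alleles were not given in the sources used here. Nothing in the labels states that each sample was its own animal. The p-values therefore reflect only how far these samples lay apart, a spread that may be technical. Whole testis was used, in which fewer cells of a type and less RNA per cell cannot be told apart.

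Libraries held between 15941672 and 18296594 counts in total. At these depths 3 counts, the limit that a count of 0 allows, correspond to between 0.165 and 0.187 CPM (counting error only). Rif1 stood at 96.5, 83.7 and 129 CPM in the WT libraries and at 42.0, 46.4 and 49.2 CPM in the sKO libraries. Rif1 was lower in each sKO library than in any WT library (log2 fold change -1.17, SE 0.15, edgeR quasi-likelihood adjusted p = 0.0145), so the labels and the targeted gene went the same way. Replicates were unequal. WT library 1 had the highest summed level of the pachytene marker list and sKO library 3 the highest of the sKO libraries. The epididymis marker list summed to 164 CPM in sKO library 1, against 5.22 to 26.2 CPM in the other libraries, with Lcn9 at 0 throughout.

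Among the 193 genes RefSeq lists 122 as long non-coding RNA, 58 as protein coding, 4 as pseudogenes and 3 as another kind of transcript, and 6 found no RefSeq match. At the level threshold, 1700012B07Rik and 1700020L13Rik lay just inside with a mean of 1.01 CPM each. Just outside lay 4931408D14Rik with 0.994 CPM and 4933405D12Rik with 0.992 CPM. Because the threshold used both groups, a gene could pass through one of them: 159 genes averaged 1 CPM or more in WT and in sKO, 31 in WT only and 3 in sKO only. A gene that passed through WT only had to be lower in sKO, so the counts over the 193 are given as a description of the list.

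**Figure D1:**
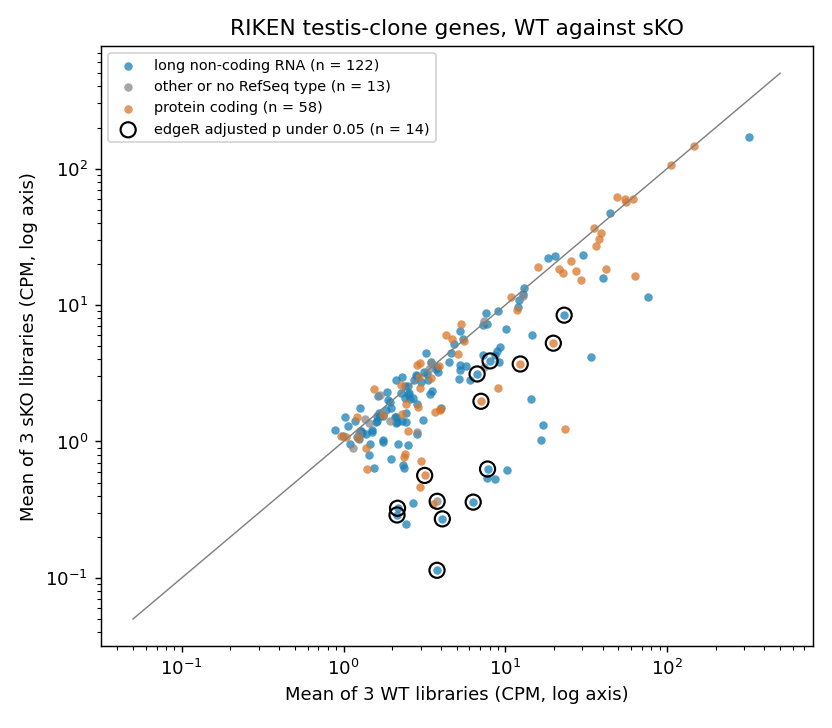
Mean level of each of the 193 genes in the 3 WT libraries (x axis, CPM, log scale) and in the 3 sKO libraries (y axis, CPM, log scale), one point per gene and coloured by RefSeq gene type. The line marks equal levels and rings mark the 14 genes with an edgeR adjusted p under 0.05. All 14 ringed points lie below the line, and most genes at the highest levels lie near it.

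All 193 genes passed the filter on low counts. The 14 that fell made up 7.25% of them, where 1.27% of the 18860 tested genes were lower in sKO by the same rule (edgeR quasi-likelihood test, Benjamini-Hochberg adjusted p under 0.05) and 1.28% of those whose mean reached 1 CPM. No member was called higher, against 0.0318% of all tested genes. Estimates were below 0 for 142 genes and above 0 for 51. The median log2 fold change was -0.27, with quartiles of -1.10 and 0.02, beside a median of 0.03 over all tested genes. An estimated fall of at least 2-fold was seen in 54 genes and a rise of that size in 0, while 70 genes lay within 0.25 of 0 on the log2 scale.

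In 73 genes every sKO library was lower than every WT library (37.8%, against 10.7% of all tested genes), and in 10 every sKO library was higher (5.18%, against 9.58%). At an unadjusted p under 0.05 edgeR had 74 genes lower, against a background of 8.54%, and 2 higher, against 5.06%. DESeq2 called 39 lower and 0 higher, where it called 3.22% of all genes lower and 0.253% higher. limma-voom called 1 lower, 4921536K21Rik, and 0 higher, where it called 0.0795% of all genes lower. With edgeR 0 genes of the whole table, and so 0 members, were called when WT library 2, sKO library 1 or sKO library 2 was left out. At an unadjusted p under 0.05, 63, 67 and 61 members were then lower. The share of all genes at that threshold was not computed for these fits, so these counts have no background beside them. The members called lower numbered 30 without WT library 3, 37 without sKO library 3, 8 without WT library 1 and 13 without both libraries numbered 1, beside 502, 624, 101 and 155 over all genes, so they went up and down with the whole table.

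**Figure D2:**
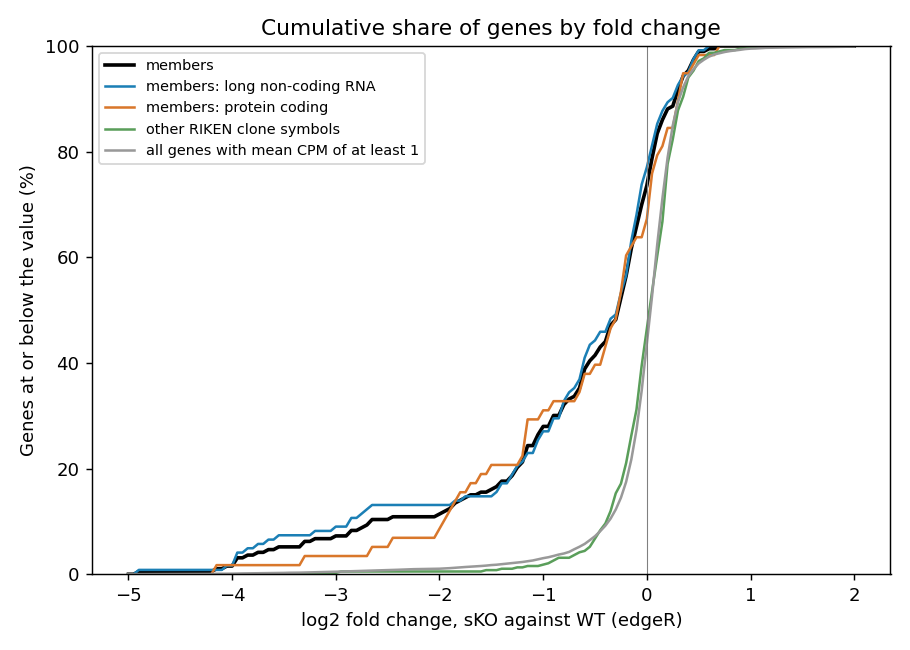
Share of genes (y axis, percent) at or below each edgeR log2 fold change of sKO against WT (x axis), for the 193 genes, for the long non-coding and protein-coding genes among them, for RIKEN clone symbols of other libraries and for all genes whose mean reached 1 CPM. The curves of the testis clones lie above the other curves at negative fold changes, with medians of -0.27 for the 193, -0.30 for the non-coding and -0.27 for the coding genes, against 0.03 for the other RIKEN clone symbols.

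The same counts can be given by the group in which a gene reached the level threshold. Of the 159 genes with at least 1 CPM in both groups, 6 fell (3.77%, against 1.27% of all tested genes) and the median log2 fold change was -0.19. In that group 45 genes were lower in sKO without overlap of the libraries (28.3%, against 10.7% of all tested genes) and 10 were higher (6.29%, against 9.58%). The shares over all tested genes were not limited to genes with 1 CPM in both groups, so the sets are unlike. Of the 31 that reached 1 CPM in WT only, 8 fell, 28 were lower without overlap and the median was -2.04. RIKEN clone symbols from other libraries at the same level, of which 385 were tested, had 3 genes called lower (0.779%) and 0 called higher. Their estimates were below 0 in 179 and above 0 in 206, with a median of 0.03. Predicted genes with a Gm symbol had 36 of 1817 called lower (1.98%) and 0 called higher. Their estimates were below 0 in 980 and above 0 in 837, with a median of -0.04.

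Both long non-coding and coding genes were among those that fell. Of 122 long non-coding RNAs 9 fell (7.38%, against 1.27% of all tested genes), 94 had estimates below 0 and the median was -0.30. Of 58 coding genes 4 fell (6.90%), 39 had estimates below 0 and the median was -0.27. By level, 4 of 71 genes with a mean of 1 to 2 CPM fell, 6 of 60 with 2 to 5 CPM, 4 of 39 with 5 to 20 CPM and 0 of 23 above that (edgeR; 8 of the 23 were lower at an unadjusted p under 0.05 and 0 higher). The 75 symbols that begin with 1700 held 6 of the 14, with a median of -0.41. The 6 genes on the X chromosome, which is silenced in pachytene spermatocytes, included 0 called genes, 1 estimate below 0 and 5 above, with a median of 0.32; in edgeR 1 of them was higher at an unadjusted p under 0.05 and 0 were lower.

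Marker lists of meiotic stages and of the flagellum had lower summed levels in sKO, while most of their genes did not pass the test. Over all tested genes edgeR called 1.27% lower. At an unadjusted p under 0.05 it had 8.54% lower and 5.06% higher. The 30 pachytene spermatocyte markers, none of them at 0 in all libraries, summed to between 1137 and 2283 CPM in WT and between 477 and 826 CPM in sKO, and 5 of the 25 tested were called lower. The 32 axoneme and flagellum genes summed to between 466 and 902 CPM in WT and between 208 and 314 CPM in sKO, with 11 of 28 called lower. The 28 leptotene and zygotene genes summed to between 2435 and 3538 CPM in WT and between 1786 and 2637 CPM in sKO, with 3 called lower. Of the 28 spermatid markers 4 (Prm3, Spaca3, H1f7 and Cabs1) were at 0 in every library. The list summed to between 579 and 745 CPM in WT and between 420 and 490 CPM in sKO. Only 11 of the 28 passed the filter on low counts, so the sum does not show that spermatids were present at this age. Of the 11 tested, 9 had estimates below 0 and 2 were called lower (18.2%). The 23 Sertoli cell markers summed to between 7778 and 9026 CPM in WT and between 9186 and 11110 CPM in sKO, with 0 called in either direction by edgeR and 8 higher, 0 lower at an unadjusted p under 0.05. The 10 Leydig cell markers summed to between 283 and 383 CPM in WT and between 389 and 521 CPM in sKO, with a median log2 fold change of 0.24 and 1 gene called lower. The 13 macrophage markers summed to between 135 and 197 CPM in WT and between 189 and 235 CPM in sKO, with 11 of 13 estimates above 0 and a median of 0.37. Markers of spermatogonia had mostly higher estimates, in 11 of 13 undifferentiated and 7 of 10 differentiating genes, with medians of 0.21 and 0.07. The macrophage and spermatogonia lists held 0 genes called by edgeR, and at an unadjusted p under 0.05 they held 0 lower and 2 higher (macrophages), 1 lower and 1 higher (undifferentiated) and 1 lower and 1 higher (differentiating). The part of cell composition in the falls of the clone genes was not tested.

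Among the 14 genes that fell were 9 long non-coding RNAs, 4 coding genes and 1 transcript of another kind, on 9 chromosomes. In each, the 3 sKO libraries lay below the 3 WT libraries. For a single gene an exact two-sided permutation test of 3 against 3 libraries cannot go below p = 0.1, the value reached by each of the 14.

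1700020N18Rik, a long non-coding RNA of chromosome 1, fell most. It stood at 5.61, 4.12 and 1.62 CPM in WT libraries 1 to 3 and at 0, 0.121 and 0.220 CPM in sKO libraries 1 to 3, from 100, 70 and 26 counts against 0, 2 and 4. Its sKO levels lay about the limit that a count of 0 allows, so its log2 fold change of -4.94 (SE 0.68, edgeR adjusted p = 0.0185) depends on how the model treats low counts. The next, 4933440M02Rik, a non-coding RNA of chromosome 7, gave 9.81, 5.95 and 3.23 CPM in WT and 0.0601, 0.303 and 0.715 CPM in sKO. Its highest sKO library was far below its lowest WT library (log2 fold change -4.09, SE 0.61, edgeR adjusted p = 0.0245).

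4930525D18Rik, non-coding and on chromosome 9, had 7.79, 2.71 and 1.74 CPM in WT and 0.240, 0.242 and 0.330 CPM in sKO. The sKO libraries were close together and the WT libraries far apart, with WT library 1 well above the other WT libraries (log2 fold change -3.88, SE 0.63, edgeR adjusted p = 0.0286). These sKO levels rest on 4, 4 and 6 counts, not far above the limit of a count of 0, and the estimate depends on them. 4930463O16Rik, a non-coding RNA of chromosome 10, had 11.2, 7.54 and 4.60 CPM in WT and 0.360, 0.424 and 1.10 CPM in sKO. It had the smallest adjusted p of the 14 (log2 fold change -3.60, SE 0.45, edgeR adjusted p = 0.0145).

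Of the rest, 1700016C19Rik, listed as neither coding nor long non-coding, fell by 3.34 on the log2 scale, with means of 3.79 ± 2.60 CPM in WT and, in sKO, 0.364 ± 0.164 CPM (SD over 3 libraries, as in all such values here). The non-coding 1700063H04Rik and 4930568E12Rik fell by 2.85 and 2.69, both from a WT mean near 2.1 CPM. Their sKO means were 0.289 ± 0.083 and 0.324 ± 0.198 CPM, not far above the limit of a count of 0.

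The 4 coding genes showed smaller falls. 4930444P10Rik had 5.27, 2.95 and 1.31 CPM in WT and 0.480, 0.606 and 0.605 CPM in sKO (log2 fold change -2.48, SE 0.49, edgeR adjusted p = 0.0436). 1700010I14Rik had 28.9, 16.5 and 14.1 CPM in WT and 4.33, 4.72 and 6.71 CPM in sKO (log2 fold change -1.91, SE 0.29, edgeR adjusted p = 0.0243). In both, WT library 1 was the highest and the sKO libraries lay in a narrow band.

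4921536K21Rik had the WT libraries closest together of the coding genes, with 8.47, 6.72 and 6.03 CPM in WT and 1.98, 1.45 and 2.47 CPM in sKO (log2 fold change -1.84, SE 0.25, edgeR adjusted p = 0.0171). 1700003E16Rik had 16.5, 12.8 and 7.77 CPM in WT and 2.64, 3.39 and 5.06 CPM in sKO (log2 fold change -1.74, SE 0.31, edgeR adjusted p = 0.0314). For this gene the gap between the lowest WT and highest sKO library was narrower than that of 4921536K21Rik.

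The other 3 long non-coding RNAs fell by less. 4933404O12Rik went from a mean of 23.1 ± 8.28 CPM to one of 8.43 ± 1.60 CPM (SD, n = 3 each), a log2 fold change of -1.45. 4931415C17Rik went from 6.69 ± 0.788 to 3.12 ± 0.339 CPM (SD, n = 3 each), a log2 fold change of -1.10. 1700028J19Rik went from 8.05 ± 1.41 to 3.89 ± 0.306 CPM (SD, n = 3 each), a log2 fold change of -1.05.

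**Figure D3:**
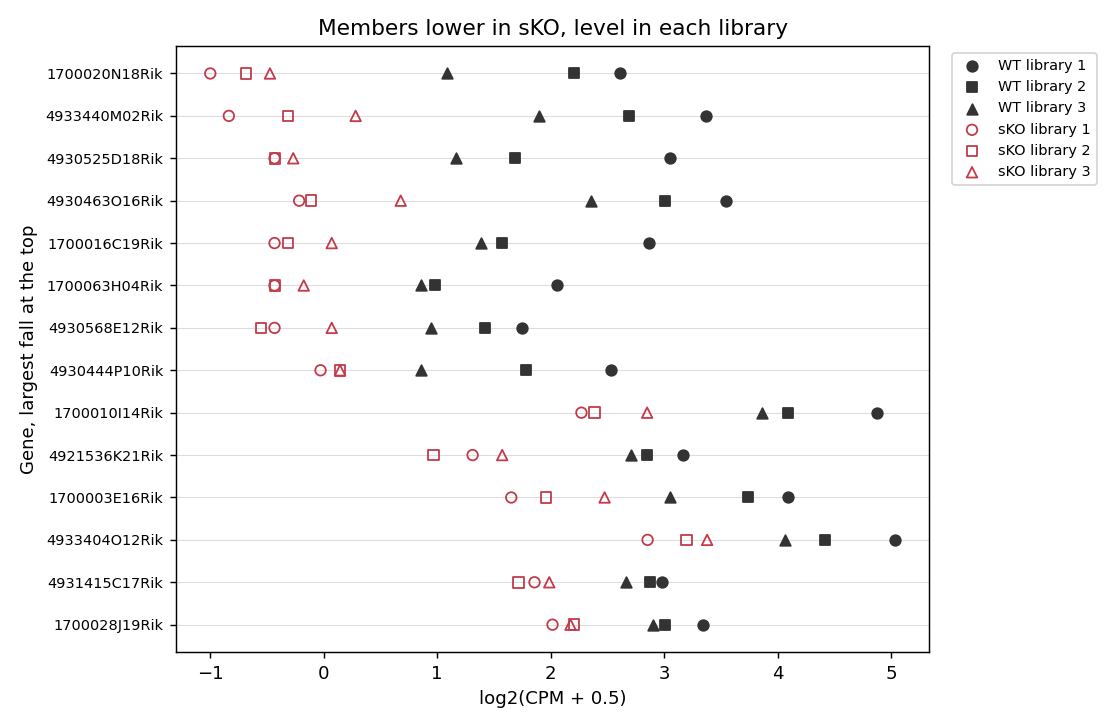
Level of the 14 genes that fell in each library, as log2(CPM + 0.5) on the x axis and one gene per line with the most negative log2 fold change at the top, with filled symbols for WT and open symbols for sKO. In each line the 3 open symbols lie to the left of the 3 filled ones, and WT library 1 (filled circle) is the rightmost of the WT libraries.

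The promoters of the 6 long non-coding RNAs with the largest falls are shown with their motif matches. MYB was among the motifs searched, and MYBL1 is a transcription factor of pachytene spermatocytes. The motif search was not among the planned results. Of the motifs searched, MYB was the one found most often in promoters of the genes that fell (58.3%). The sequences are RefSeq promoters on build GRCm38.p6, from 250 bases before to 50 bases after the annotated start, while the counts were made on mm39. Capitals mark matches on either strand to MYB (TAACNG) or, where present, to the core of the CRE (TGACGT) or the TATA box (TATAAA). They lie at chr1:91405980-91406279 on the minus strand for 1700020N18Rik, chr7:125349737-125350036 on the minus strand for 4933440M02Rik, chr9:114364578-114364877 on the minus strand for 4930525D18Rik, chr10:84488043-84488342 on the plus strand for 4930463O16Rik, chr6:122391129-122391428 on the plus strand for 1700063H04Rik and chr9:13105806-13106105 on the minus strand for 4930568E12Rik.
1700020N18Rik: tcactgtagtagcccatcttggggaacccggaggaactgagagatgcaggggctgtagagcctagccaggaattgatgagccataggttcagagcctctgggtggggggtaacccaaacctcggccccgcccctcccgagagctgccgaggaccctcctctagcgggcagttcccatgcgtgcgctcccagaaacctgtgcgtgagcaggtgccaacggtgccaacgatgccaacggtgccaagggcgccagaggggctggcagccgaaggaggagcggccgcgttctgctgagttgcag
4933440M02Rik: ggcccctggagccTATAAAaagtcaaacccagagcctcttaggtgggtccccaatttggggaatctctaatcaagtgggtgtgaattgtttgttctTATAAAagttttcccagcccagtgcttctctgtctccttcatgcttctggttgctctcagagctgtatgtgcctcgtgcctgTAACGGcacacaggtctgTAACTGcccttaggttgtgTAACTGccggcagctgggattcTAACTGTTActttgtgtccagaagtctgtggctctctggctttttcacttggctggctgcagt
4930525D18Rik: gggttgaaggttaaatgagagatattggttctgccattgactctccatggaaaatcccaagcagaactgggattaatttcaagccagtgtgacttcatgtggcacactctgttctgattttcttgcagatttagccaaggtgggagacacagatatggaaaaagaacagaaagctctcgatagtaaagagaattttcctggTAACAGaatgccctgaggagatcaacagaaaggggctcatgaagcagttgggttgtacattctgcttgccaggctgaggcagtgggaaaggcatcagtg
4930463O16Rik: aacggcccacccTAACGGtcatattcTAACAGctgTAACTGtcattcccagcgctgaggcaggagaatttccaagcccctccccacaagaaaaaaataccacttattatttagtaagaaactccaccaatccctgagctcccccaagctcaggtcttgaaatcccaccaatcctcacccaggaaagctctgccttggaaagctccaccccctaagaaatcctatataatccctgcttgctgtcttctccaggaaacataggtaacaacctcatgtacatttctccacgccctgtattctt
1700063H04Rik: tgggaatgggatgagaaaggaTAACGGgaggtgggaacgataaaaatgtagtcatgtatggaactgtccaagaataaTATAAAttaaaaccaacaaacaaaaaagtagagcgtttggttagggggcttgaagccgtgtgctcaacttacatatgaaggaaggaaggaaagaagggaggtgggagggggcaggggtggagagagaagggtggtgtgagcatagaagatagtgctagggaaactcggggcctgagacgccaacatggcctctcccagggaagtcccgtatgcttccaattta
4930568E12Rik: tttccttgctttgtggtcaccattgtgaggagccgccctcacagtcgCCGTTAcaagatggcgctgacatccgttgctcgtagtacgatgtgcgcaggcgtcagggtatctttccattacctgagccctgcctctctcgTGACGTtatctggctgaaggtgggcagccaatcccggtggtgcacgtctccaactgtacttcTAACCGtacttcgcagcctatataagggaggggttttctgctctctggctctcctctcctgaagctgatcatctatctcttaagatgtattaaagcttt

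The window of 1700020N18Rik held none of the motifs searched. That of 4933440M02Rik held 5 MYB matches, of which the last pair overlap on opposite strands, that of 4930463O16Rik held 3, that of 4930568E12Rik 2 and those of 4930525D18Rik and 1700063H04Rik 1 each. The windows of the other 3 long non-coding RNAs that fell, 4933404O12Rik, 4931415C17Rik and 1700028J19Rik, held 0 MYB matches. Among the coding genes with a promoter, 4921536K21Rik held 0, 1700003E16Rik 1 and 1700010I14Rik 2. RefSeq promoters were found for 12 of the 14 genes. At least 1 MYB match was present in 7 of the 12 (58.3%), in 22.5% of 160 promoters of the other members and in 23.3% of 32851 RefSeq promoters. At least 3 matches were present in 16.7%, 1.88% and 0.508%, the first share being 2 of 12 promoters.

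The other motifs were searched the same way. The E-box (CACGTG) was in 0 of the 12 promoters, in 11.3% of those of the other members and in 7.15% of all. The CRE core was in 16.7%, 9.38% and 7.51%, the X-box core (GTTGCCA) in 16.7%, 5% and 4.38%, and the TATA box in 16.7%, 8.75% and 13.6%. Median GC content was 53.2% in the 12 promoters, 55.2% in those of the other members and 52.7% in all. A match to these letters is a description of the window, and the shares of the first set rest on 12 promoters. Whether MYBL1 acts on any of these genes was not tested.

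The libraries of a group did not lie at the same level. All 14 genes were highest in WT library 1 and lowest in WT library 3 among the WT libraries, and 12 of the 14 were highest in sKO library 3 among the sKO libraries. Relative to the WT mean, the median of the 14 stood at 0.50, -0.09 and -0.59 on the log2 scale in WT libraries 1 to 3. It stood at -1.97, -1.96 and -1.54 in sKO libraries 1 to 3, so that all sKO medians lay below all WT medians. Over the 193 genes the medians were 0.22, -0.07 and -0.18 in WT and -0.36, -0.31 and -0.25 in sKO. The summed level of the 193 was 2727, 2002 and 1857 CPM in WT and 1390, 1463 and 1777 CPM in sKO. WT library 1 was the highest WT library for 128 of the 193 genes.

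The same order of libraries ran through the genes with large estimates. Of the 54 genes with an estimated fall of at least 2-fold, 52 were highest in WT library 1 among WT, 49 were lowest in WT library 3 and 44 were highest in sKO library 3 among sKO. The pachytene marker sum was 2283, 1575 and 1137 CPM in WT libraries 1 to 3 and 477, 533 and 826 CPM in sKO libraries 1 to 3, which is the same order within each group. The order was not particular to that list. The axoneme and flagellum sum was 902, 605 and 466 CPM in WT and 208, 225.5 and 314 CPM in sKO. The leptotene and zygotene sum was also highest in WT library 1 and sKO library 3, but among WT it was lowest in WT library 2 (2435 CPM). The part of these sums in the spread was not tested.

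**Figure D4:**
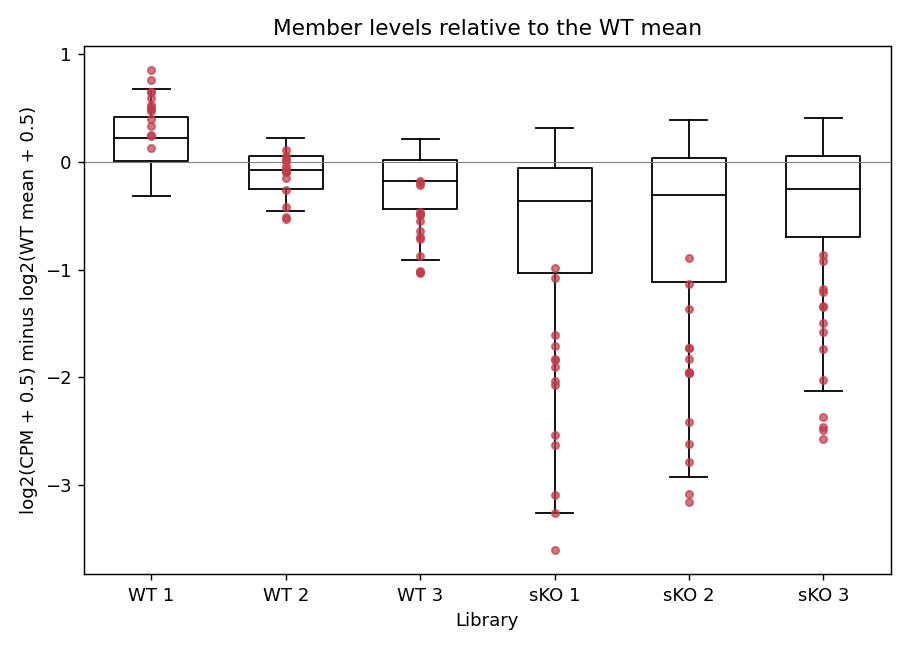
Level of the 193 genes in each library relative to the mean of the WT libraries, as log2(CPM + 0.5) minus log2(WT mean + 0.5) on the y axis. Boxes span the quartiles with the median line, whiskers the 5th to 95th percentile, and red points are the 14 genes that fell. The median is 0.22 in WT library 1 and -0.36 in sKO library 1, and every red point in the sKO libraries lies below 0.

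Several genes with large estimates were not called. 1700102P08Rik, a testis gene needed for male fertility in mice, stood at 91.6, 51.3 and 46.5 CPM in WT and at 8.77, 11.3 and 28.7 CPM in sKO. The groups did not overlap, but sKO library 3 was well above the other sKO libraries (log2 fold change -1.95, SE 0.55, edgeR adjusted p = 0.214). A few more were chosen after their values were seen. 1700006A11Rik, coding, gave 42.3, 17.4 and 10.01 CPM in WT and 0.120, 0.666 and 2.91 CPM in sKO (log2 fold change -4.20, SE 1.01, edgeR adjusted p = 0.166). 1700029M20Rik, non-coding, gave 111, 70.3 and 45.6 CPM in WT and 5.35, 9.02 and 19.9 CPM in sKO (log2 fold change -2.72, SE 0.59, edgeR adjusted p = 0.130). In both, WT library 1 and sKO library 3 were the highest of their groups.

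The 4 genes with the smallest p above the threshold were lower in sKO without overlap of the libraries. They were 1700012B09Rik (log2 fold change -2.67, edgeR adjusted p = 0.0503), 4930579G24Rik (-0.93, 0.0511), 4933433G15Rik (-1.28, 0.0518) and 4932414N04Rik (-3.33, 0.0548). 4930579G24Rik, a coding gene, had 39.2, 25.6 and 23.1 CPM in WT and 14.1, 14.3 and 17.6 CPM in sKO.

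Of the 8 genes with the highest mean CPM, which is not divided by transcript length, none was called. The long non-coding RNA 1700001L05Rik had 408.5, 282.5 and 268.8 CPM in WT and 130.1, 150.5 and 231.4 CPM in sKO. Its groups did not overlap, with sKO library 3 closest to WT (log2 fold change -0.91, SE 0.24, edgeR adjusted p = 0.148). 4930447C04Rik encodes SIX6OS1, a central element protein of the synaptonemal complex that holds paired chromosomes together. It had 142, 74.9 and 98.2 CPM in WT and 83.1, 84.6 and 151 CPM in sKO, with overlapping groups (log2 fold change 0.02, SE 0.32, edgeR adjusted p = 0.990).

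1700017B05Rik averaged 147 ± 16.1 CPM over the WT libraries and 147 ± 3.57 CPM over the sKO libraries (SD, n = 3 each), and its log2 fold change of 0.00 had an SE of 0.10. 4933434E20Rik, 1700025G04Rik, 4931406C07Rik and 4933427D06Rik had log2 fold changes of -0.02, 0.13, 0.04 and 0.10 with SEs of 0.10 to 0.12, and their groups overlapped. These small estimates change sign under some settings for 1700017B05Rik, 4930447C04Rik, 4933434E20Rik, 4931406C07Rik and 4933427D06Rik. The X-linked 1700013H16Rik had 60.7, 39.1 and 48.3 CPM in WT and 61.7, 53.7 and 71.8 CPM in sKO, again overlapping (log2 fold change 0.34, SE 0.16, edgeR adjusted p = 0.400). 4933427D14Rik, which encodes the centriolar satellite protein moonraker, had a log2 fold change of -0.32 (SE 0.13, edgeR adjusted p = 0.317).

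No gene passed the test upward. The smallest p among genes with higher estimates belonged to 4930523C07Rik, whose WT mean was 5.35 ± 0.608 CPM and whose sKO mean was 7.20 ± 0.609 CPM (SD, n = 3 each), with a log2 fold change of 0.43 and an edgeR adjusted p of 0.340. It was followed by the X-linked 1700031F05Rik (0.66, adjusted p = 0.348), 4933431E20Rik (0.26, 0.387) and 4933413J09Rik (0.47, 0.394). In these 4 genes every sKO library was above every WT library. The log2 fold change of 1700031F05Rik was the highest of the 193.

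Many testis transcripts start next to a coding gene and run the other way. In GENCODE M21 (GRCm38), which matched 182 of the 193 genes, 96 overlapped a gene on the opposite strand, 20 one on the same strand and 80 no other gene. Of the 80 without overlap 9 fell (11.25%, against 1.27% of all tested genes), with a median log2 fold change of -0.44. Of the 96 with an opposite-strand overlap 3 fell (3.125%), with a median of -0.25. The strand setting of the counting was not given in the sources used here, and whether reads of such overlapping genes were kept apart was not tested. The difference between these classes was not tested.

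A coding gene on the opposite strand began within 1000 bases of the start of 65 genes, and for 62 of these pairs both were tested. Both estimates were below 0 in 34 pairs. The median was -0.26 for the clone genes and -0.10 for the coding partners. Across the 62 pairs Pearson's r was 0.40 and Spearman's rho 0.22, a description only, since the pairs share libraries and, where they overlap, may share reads.

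In 1 of the 62 tested pairs the coding partner fell, where 1.27% of all tested genes were lower by the same rule. Whether partners fell more often than other genes was not tested. The pair is described as a single case. 1700003E16Rik and Wdr54, a WD repeat protein gene, begin 7 bases apart. Wdr54 stood at 12.7, 10.3 and 10.01 CPM in WT and at 5.17, 5.45 and 5.22 CPM in sKO (log2 fold change -1.06, SE 0.17, edgeR adjusted p = 0.0257). Its sKO libraries were nearly equal and lay below all WT libraries, as did those of 1700003E16Rik, whose estimate was -1.74.

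Partners of the other genes that fell were not called. Dusp18, a dual-specificity phosphatase gene that begins 142 bases from 4921536K21Rik, averaged 17.4 ± 2.44 CPM over the WT and 12.1 ± 1.44 CPM over the sKO libraries, with n = 3 per group (log2 fold change -0.53, edgeR adjusted p = 0.161). Tubgcp3, a gamma-tubulin complex gene that overlaps 4931415C17Rik, had a log2 fold change of -0.06 (SE 0.09). 2410002F23Rik, which begins 27 bases from 1700028J19Rik, had one of 0.24 (SE 0.09, edgeR adjusted p = 0.264).

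In 2 further pairs, chosen after their values were seen, both genes had estimates below -1. Hspa2, the chaperone of spermatocytes, stood at 365, 289 and 204 CPM in WT and at 81.5, 91.5 and 150 CPM in sKO (log2 fold change -1.41, SE 0.29, edgeR adjusted p = 0.0827). It begins 194 bases from the non-coding 4930426I24Rik, whose log2 fold change was -1.08 (SE 0.40, edgeR adjusted p = 0.256). Stk33, a kinase gene of spermatids, and 1700095J03Rik had log2 fold changes of -1.32 and -1.09 (edgeR adjusted p = 0.169 and 0.201).

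**Figure D5:**
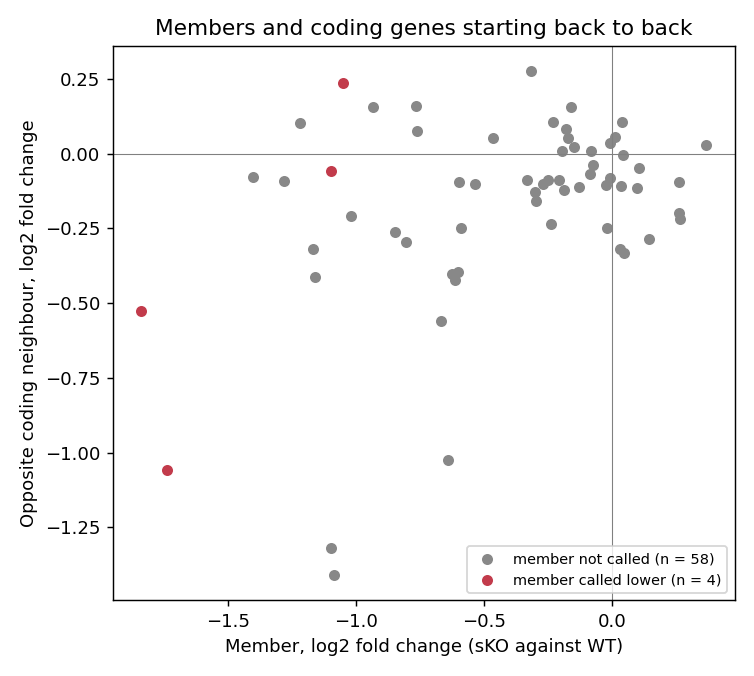
Log2 fold change (edgeR, sKO against WT) of 62 RIKEN testis-clone genes (x axis) and of the protein-coding gene that starts within 1000 bases on the opposite strand (y axis), one point per pair. The 4 red points are genes that fell, and the red point at -1.06 on the y axis is the pair of 1700003E16Rik and Wdr54.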

How the data were processed

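The authors deposited raw read counts per gene symbol, 1 table for the whole series. Per the submitters' processing notes, reads went through Trim Galore, HISAT2 and featureCounts on mm39. Not given in the sources used here are versions, annotation and strand setting. Columns named con and scKO were read as WT and sKO and matched by replicate number, and 0 columns of per-sample values were left unused. The labels supplied the groups.

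Counts of all genes were fitted with edgeR 4.0.16 in R 4.3.3 (filterByExpr, TMM factors, robust quasi-likelihood F test, sKO against WT, all 6 libraries, no covariates), with Benjamini-Hochberg adjustment over 18860 genes. Genes with an adjusted p under 0.05 are called, and "fell" is used only of these. Levels are CPM on TMM-scaled library sizes, while the member threshold used plain totals. SEs were derived from the F statistic. Scripts were tested on simulated data. DESeq2 1.42.0 and limma 3.58.1 served as alternatives, beside other scaling, no low-count filter, a replicate block, left-out libraries and other member thresholds. The removal of both libraries numbered 1 was added after seeing the data. No 2 libraries of a group were repeat counts of 1 library, since chi-square over its degrees of freedom was 4.45 to 20.2.

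The members and lists were chosen with earlier results of these data known. Named members are those called (up to 14), the 8 with the highest mean CPM, the 4 with the smallest p in each direction that were not called, known proteins, and the pair on either side of the threshold. A RefSeq table (GRCm38.p6) matched 187 of the 193 symbols, and promoters were found for 145. Gene positions for overlaps came from GENCODE M21. No coordinates on mm39 are given.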

Additional observations from a re-analysis of the deposited data

How the results depend on the processing

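The 14 members called lower became 39 with the DESeq2 Wald test, 1 with limma-voom, 46 with no filter on low counts (over all genes 714, 15 and 992, from 240), and 6 where at least 1 CPM was asked in both groups. Leaving out 1 library gave between 0 and 37. With RLE factors, without TMM, with both libraries numbered 1 removed, and with member thresholds of 0.5 or 2 CPM the counts were 15, 19, 13, 19 and 10. Without both libraries numbered 1, 9 of the 14 were among those called. No setting called a member higher. The median log2 fold change ranged from -0.38 to -0.19 over all settings, and the 14 had estimates below 0 in each. A replicate block left 1 call, 4930525D18Rik, beside 21 lower over all genes. Same-numbered libraries did not deviate together (correlations -0.38, 0.17 and -0.33) and not every library correlated best with its own number, so the numbers were not taken as pairs. The cause of these changes was not tested. For Rif1, leaving out 1 library gave log2 fold changes of -1.30 to -0.97, and the adjusted p (edgeR) was above the threshold without WT library 2 (0.137), sKO library 1 (0.0618) or sKO library 2 (0.120). Among the named members, signs changed for 6, of which 1700020L13Rik had an estimate of -0.37 and the others lay within 0.25 of 0. 1700017B05Rik was -0.016 with RLE factors, -0.015 without TMM, -0.013 with DESeq2, -0.007 without the filter and -0.03 without both libraries numbered 1. With 1 library left out it ranged from -0.053 to 0.095, 4930447C04Rik from -0.359 to 0.298, 4933434E20Rik from -0.098 to 0.051, 4931406C07Rik from -0.009 to 0.073 and 4933427D06Rik from -0.061 to 0.146. Without both libraries numbered 1, 4933434E20Rik was 0.034 and 1700020L13Rik 0.002. Levels near 0.2 CPM rest on a few counts.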

Other observations

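Below the 1 CPM threshold, 54 of the 889 further symbols of this form passed the low-count filter. Of these 6 were called lower (11.1%, against 1.27% of all tested genes) and 0 higher in edgeR, and the median log2 fold change was -0.44. At an unadjusted p under 0.05 edgeR had 13 lower and 0 higher. At such levels a gene can pass the filter through the group where it is high. The 6 had 10 or more counts in every WT library and 5 or fewer in every sKO library. Their direction was largely set by the filter, so these counts only describe the list. The coding gene 1700029F12Rik had 41, 26 and 11 counts in the WT libraries and 0 in each sKO library (edgeR adjusted p = 0.0245). Its WT mean of 1.505 CPM was 8.63 times the level of 3 counts per sKO library, a limit that covers counting error in sKO only. The WT libraries themselves were spread, at 2.30, 1.53 and 0.684 CPM. The long non-coding RNA 4930488L21Rik had 18, 10 and 11 counts in WT and 0, 0 and 1 in sKO (edgeR adjusted p = 0.0286). The long non-coding 4931408D14Rik, the gene nearest below the threshold, had 3.25, 1.30 and 0.808 CPM in WT and 0.180, 0.182 and 0.275 CPM in sKO, with WT library 1 well above the other libraries (log2 fold change -3.03, SE 0.60, edgeR adjusted p = 0.0436).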
